A study of Mus musculus with 3 samples.

Results

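The genes described here are the 163 variable segments of the alpha and beta chains of the T cell receptor in a mouse single-cell data set. They are all gene symbols in the deposited gene list that begin with Trav (128 alpha segments) or Trbv (35 beta segments), of 32285 genes in all. The samples were CD45+ cells from B16F10 melanomas grown under the skin of C57BL/6 mice, taken 3, 7 or 14 days after an intravenous transfer of Pmel-1 cytotoxic T lymphocytes (CTL) activated in culture, which was given on day 9 after the tumour cells. Every group received the transfer, and no tumour without it was analysed here. Each day is 1 library made from equal numbers of cells of 3 mice, so the day, the age of the tumour and the library cannot be told apart, and differences between days stand without replicates. The labels give both a cell sorter and magnetic beads as the way the CD45+ cells were isolated.

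A T cell builds its receptor chains by joining 1 variable segment to joining segments (and, in the beta chain, a diversity segment) and splicing the result to a constant gene, Trac for alpha and Trbc1 or Trbc2 for beta. Cells that descend from 1 T cell share their segments, and a tumour with many unrelated T cells holds many. The Pmel-1 receptor, which recognises the melanocyte protein gp100, has a beta chain that uses Trbv14 and an alpha chain of the Trav7 family. The libraries were made with a kit that reads the 3' end of each RNA, and the variable segment lies at the other end, so only a small part of the receptor RNAs shows its segment.

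Cell barcodes with at least 1500 unique molecular identifiers (UMIs, the counted RNA molecules) were put into 3 classes by their own UMIs. CD8 T barcodes had at least 1 UMI of Cd3d, Cd3e or Cd3g and 1 of Cd8a or Cd8b1, CD4 T barcodes had Cd4 with Cd3d or Cd3e, and the remaining barcodes with a Cd3 UMI form the third class. There were 484, 568 and 517 CD8 T barcodes on days 3, 7 and 14, with a median of 14063, 12705 and 10758 UMIs. The CD4 T class held 62, 114 and 176 barcodes, of which 21, 25 and 28 also passed the CD8 gate, and the third class held 340, 393 and 448. The 3 libraries held 33096709, 29547433 and 35742070 UMIs in 3656, 3038 and 3549 barcodes.

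The classes were checked against marker genes. In CD8 T barcodes the CD8 markers Cd8a and Cd8b1 summed to 976, 1300 and 863 counts per 1000000 UMIs (CPM) and the CD4 markers Cd4 and Cd40lg to 6.35, 10.7 and 7.5 CPM, while 5 myeloid markers summed to 886, 357 and 890.2 CPM. The CD4 T class carried 4 genes of regulatory T cells (Foxp3, Il2ra, Ctla4, Ikzf2) at 1747, 1949 and 1547 CPM in sum, and CD8 markers at 295, 220.5 and 95.2 CPM. The same 4 genes summed to 544, 582 and 440 CPM in CD8 T barcodes. Foxp3 alone was at 225, 153 and 161 CPM in the CD4 T class, in 45.2%, 29.8% and 34.1% of its barcodes. The 5 myeloid markers summed to 1482, 350 and 1402 CPM in the CD4 T class, so it is not purely T cells either. The third class does not look like a pure T cell class: its 5 myeloid markers summed to 6981, 5459 and 4786 CPM and its 5 NK markers to 207, 448 and 185 CPM. It is therefore called by its rule, other Cd3-positive barcodes. The part of these other cells in the results was not tested.

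Some barcodes occurred in more than 1 library. Among all barcodes of at least 1500 UMIs these were 4.97%, 6.92% and 3.00% on days 3, 7 and 14. In the CD8 T class the share was higher, with 88 (18.2%), 92 (16.2%) and 49 (9.48%) barcodes. These CD8 T barcodes were large here, with medians of 45339, 35594 and 44046 UMIs, and small in the other library, with medians of 844, 806 and 770.0 UMIs. Results that rest on single barcodes are given with and without them.

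Of the 128 alpha and 35 beta segments, 66 and 17 had at least 1 UMI in a Cd3-positive barcode, with 548 and 1013 UMIs in all. No segment was filtered out, but most were too rare to compare: in CD8 T barcodes 74 alpha and 20 beta segments had no UMI, and 3 of each chain reached 20 UMIs. Beta segments were seen in 24.2%, 35.6% and 30.8% of CD8 T barcodes on days 3, 7 and 14 and alpha segments in 14.7%, 13.9% and 13.2%. When each barcode was thinned to 5000 UMIs, which left out 77, 55 and 92 shallower ones, the beta shares were 9.53%, 16.2% and 13.9% and the alpha shares 6.54%, 6.59% and 6.25%. A CD8 T barcode held 3.53, 4.17 and 4.37 Trbv UMIs per 1000 UMIs of the beta constant genes, and 17.3, 18.3 and 23.1 Trav UMIs per 1000 UMIs of Trac.

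The background was read from barcodes of other cell types. Myeloid barcodes, taken as those with no Cd3 or Ncr1 UMI and at least 3 UMIs of Csf1r and Lyz2 together, should lack both chains. They held 0, 1 and 1 Trbv UMIs in 1332, 911 and 1260 barcodes with medians of 10414, 10555 and 11697 UMIs, and 1, 0 and 1 Trav UMIs. NK barcodes, with Ncr1 and no Cd3 UMI (172, 347 and 138, with medians of 4971, 6129 and 5669.5 UMIs) held 2, 1 and 0 UMIs of Trbv14 and 0, 6 and 1 UMIs of Trav segments, all of them Trav22. The CD8 T barcodes held 200, 384 and 343 Trbv and 99, 128 and 108 Trav UMIs. All intervals below are exact 95% intervals (Clopper-Pearson for shares, conditional on the total for ratios). They cover counting error only, treat UMIs of 1 barcode as independent, and say nothing of the spread between mice.

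Trbv14, the segment of the transferred receptor, held most beta UMIs of CD8 T barcodes on every day. It lies at chr6:41135145-41135616 on the plus strand (mm10) and is annotated as a functional variable gene with 2 exons. Its second exon (chr6:41135320-41135616), which codes for most of the variable domain, is shown with that of Trbv13-1 (chr6:41116178-41116468, plus strand), since the 2 segments were found together in many barcodes. The capitals run from the last in-frame cysteine codon to the exon end, where the joined part of the chain begins, and both sequences are from the GENCODE M21 transcripts (GRCm38, the same build as mm10).
Trbv14: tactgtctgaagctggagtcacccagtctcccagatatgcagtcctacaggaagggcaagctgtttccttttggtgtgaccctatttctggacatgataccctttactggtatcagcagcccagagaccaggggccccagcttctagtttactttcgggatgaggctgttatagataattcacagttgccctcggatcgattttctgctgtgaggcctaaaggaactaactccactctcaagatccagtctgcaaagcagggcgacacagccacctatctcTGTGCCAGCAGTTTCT
Trbv13-1: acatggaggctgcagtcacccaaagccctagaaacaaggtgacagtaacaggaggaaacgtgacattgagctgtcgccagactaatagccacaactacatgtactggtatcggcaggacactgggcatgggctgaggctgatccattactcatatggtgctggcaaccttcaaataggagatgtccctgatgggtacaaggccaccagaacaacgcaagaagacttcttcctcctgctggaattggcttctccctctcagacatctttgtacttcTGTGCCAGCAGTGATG
Aligned over their second exons these 2 segments were identical at 56.1% of aligned positions, and their longest identical run was 14 bases. Their coding sequences shared no stretch of 50 bases.

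CD8 T barcodes held 148 UMIs of Trbv14 on day 3, 318 on day 7 and 299 on day 14. Of all Trbv UMIs this was 74.0% (67.3 to 79.9), 82.8% (78.7 to 86.5) and 87.2% (83.2 to 90.5). Day 3 was the lowest day on both measures, and the share intervals of days 3 and 7, and of days 7 and 14, overlapped. The odds of a Trbv UMI being Trbv14 were 1.69 times higher on day 7 than on day 3 (1.09 to 2.61), 1.41 times higher on day 14 than on day 7 (0.916 to 2.19) and 2.38 times higher on day 14 than on day 3 (1.49 to 3.83). Counted by barcodes, so that a cell with many UMIs weighs no more than one with few, Trbv14 was in 79 of 117, 161 of 202 and 136 of 159 barcodes with a beta segment, or 67.5%, 79.7% and 85.5%. The order of the days was the same. Without barcodes found in more than 1 library the shares of Trbv UMIs were 68.9%, 82.0% and 86.8%.

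The level of Trbv14 in CD8 T barcodes was 15.4 CPM on day 3, 32.9 CPM on day 7 and 34.0 CPM on day 14. The ratio of day 7 to day 3 was 2.14 (1.75 to 2.62), and that of day 14 to day 7 was 1.03 (0.877 to 1.21). All other beta segments together had 52, 66 and 44 UMIs, or 5.41, 6.84 and 5.0 CPM, and each of their ratios between days had an interval that included 1. The higher share of Trbv14 on days 7 and 14 thus went with a higher level of Trbv14, while no difference in the sum of the other segments was detectable at this depth. Within that sum Trbv13-1 was higher on day 7 than on day 3 (0.937 and 2.59 CPM, ratio 2.77, 1.25 to 6.73). Trbv14 was found in 16.3%, 28.3% and 26.3% of CD8 T barcodes, and in 6.22%, 13.2% and 11.4% after thinning. At least 2 UMIs of it were in 33, 77 and 75 barcodes, and the most in 1 barcode were 11, 22 and 9.

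**Figure D1:**
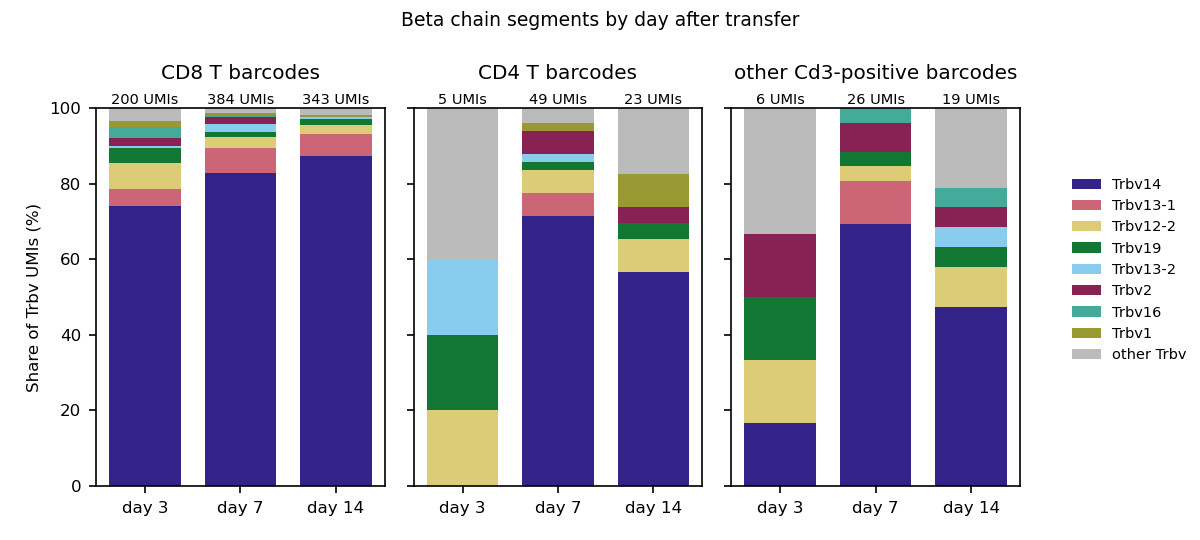
Share of Trbv UMIs (vertical axis, %) held by each beta segment on days 3, 7 and 14 (bars) in CD8 T, CD4 T and other Cd3-positive barcodes; the number above each bar is the Trbv UMIs it rests on. Trbv14 fills 74.0%, 82.8% and 87.2% of the CD8 T bars, and the day 3 bars of the other classes rest on 5 and 6 UMIs.

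In the CD4 T class Trbv14 had 0 of 5, 35 of 49 and 13 of 23 Trbv UMIs, and in the other Cd3-positive barcodes 1 of 6, 18 of 26 and 9 of 19. Part of the CD4 T barcodes with Trbv14 also passed the CD8 gate: of 21 on day 7 and 5 on day 14, 10 and 2 had no Cd8a or Cd8b1 UMI. The CD8 markers in that class stand above.

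The other beta segments were minor on each day in CD8 T barcodes. Trbv13-1 was next, with 9, 25 and 20 UMIs in 8, 24 and 17 barcodes. Trbv12-2 had 14, 12 and 9 UMIs, or 7.00% (3.88 to 11.5), 3.13% (1.62 to 5.40) and 2.62% (1.21 to 4.92) of Trbv UMIs. Its place in the order differed by day: it was ahead of Trbv13-1 on day 3 and behind it on days 7 and 14, with overlapping intervals on each day. Trbv19 had 8, 5 and 5 UMIs, Trbv13-2 had 1, 8 and 2, Trbv2 had 4, 7 and 0, Trbv16 had 6, 2 and 0 and Trbv1 had 3, 2 and 2. Each of these was within a few UMIs of its neighbours, and no order among them can be read at this depth. In the CD4 T class Trbv12-2 had 1, 3 and 2 UMIs and Trbv2 had 0, 3 and 1, and in other Cd3-positive barcodes they had 1, 1 and 2 and 1, 2 and 1.

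Trbv13-1 differed from the other minor segments in the barcodes it was found in. Of the 49 CD8 T barcodes with Trbv13-1, 34 also held Trbv14 (69.4%, 54.6 to 81.7), namely 4 of 8, 18 of 24 and 12 of 17 on days 3, 7 and 14. Of the 94 barcodes with any other beta segment and no Trbv13-1, 7 held Trbv14 (7.45%, 3.05 to 14.7). The intervals do not overlap. Trbv12-2 was with Trbv14 in 4 of 32 barcodes (12.5%), and Trbv19 in 0 of 17, which allows up to 19.5%. Leaving out barcodes found in more than 1 library gave 22 of 32 (68.8%) for Trbv13-1, 2 of 23 (8.70%) for Trbv12-2 and 0 of 9 for Trbv19. No doublet caller was run, and the part of barcodes with more than 1 cell in these shares was not tested.

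**Figure D2:**
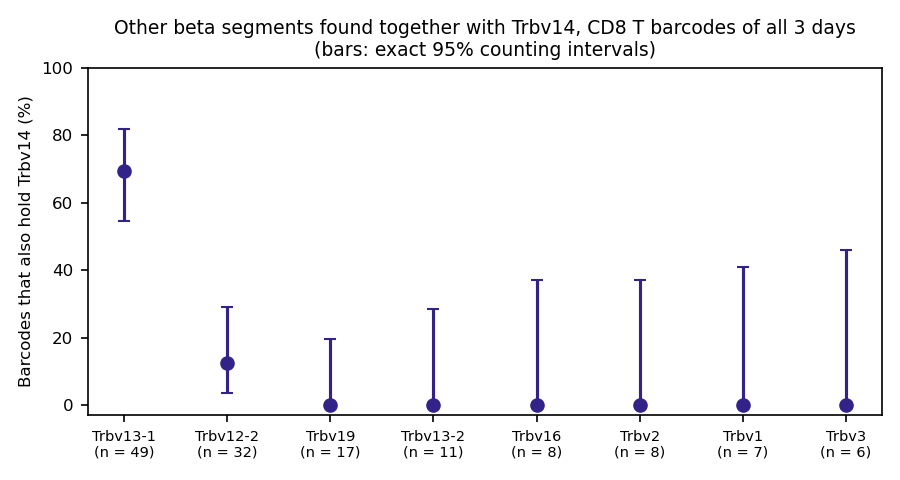
Share of the CD8 T barcodes with each beta segment that also held Trbv14 (vertical axis, %), over all 3 days, for the segments seen in at least 6 barcodes (horizontal axis, n barcodes); bars are exact 95% intervals. Trbv13-1 stands at 69.4%, Trbv12-2 at 12.5% and the other 6 at 0.

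The constant gene Trbc2 separated the same barcodes. In CD8 T barcodes with Trbv14 it stood at 9361, 13386 and 11850.2 CPM on days 3, 7 and 14, and in those with another beta segment and no Trbv14 at 2295, 3969 and 4291 CPM. The ratios were 4.08 (3.91 to 4.25), 3.37 (3.26 to 3.48) and 2.76 (2.63 to 2.90), and without the barcodes found in more than 1 library 4.18, 3.23 and 2.68. The medians per barcode were 9883, 13822 and 12332 CPM against 1910.1, 1983 and 2174 CPM, so the difference was not made by a few barcodes. The groups were of like depth on days 3 and 7 (medians of 26176 against 25462 and 18321 against 19827 UMIs), but on day 14 the Trbv14 barcodes were deeper (25920 against 8279). The group with another beta segment includes barcodes with Trbv13-1. Without these its level of Trbc2 was 1829, 2255 and 2147 CPM on days 3, 7 and 14, from 34, 35 and 18 barcodes. The medians per barcode were then 1882, 1912 and 1906 CPM.

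The alpha constant gene Trac and the other beta constant gene differed by less and not in 1 direction. Trac was 1.10 (0.999 to 1.21), 1.09 (0.999 to 1.18) and 0.644 (0.568 to 0.733) times as high with Trbv14 as with another beta segment on days 3, 7 and 14. For Trbc1 the ratios were 1.59 (1.47 to 1.73), 1.01 (0.943 to 1.07) and 0.844 (0.767 to 0.931). Without barcodes found in more than 1 library the Trac ratios were 1.17 (1.03 to 1.33), 1.09 (0.964 to 1.23) and 0.593 (0.513 to 0.689), and the Trbc1 ratios 1.41 (1.27 to 1.56), 0.743 (0.684 to 0.807) and 1.02 (0.899 to 1.15). The direction for Trbc1 on days 7 and 14 thus rests on those barcodes.

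A level of 5000 CPM of Trbc2, chosen after the values were seen, lies between the groups. It was reached by 87.3%, 97.5% and 97.8% of barcodes with Trbv14 on days 3, 7 and 14. Of those with another beta segment 10.5%, 22.0% and 21.7% reached it, or 2.94%, 8.57% and 5.56% without those that held Trbv13-1. Of barcodes in which no beta segment was seen 25.1%, 32.0% and 22.3% reached it. These last were shallower than the Trbv14 barcodes, with medians of 11880, 10501.5 and 8522.5 UMIs, and the part of depth was not tested. Barcodes with Trbv13-1 and no Trbv14 were on the side of Trbv14: their median was 12055 CPM, and 13 of 15 reached the level. The 87 barcodes with any other segment and neither of the 2 had a median of 1887 CPM, and 5 of them reached it. Among CD4 T barcodes without a CD8 UMI, 4.88%, 37.1% and 9.46% reached it.

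**Figure D3:**
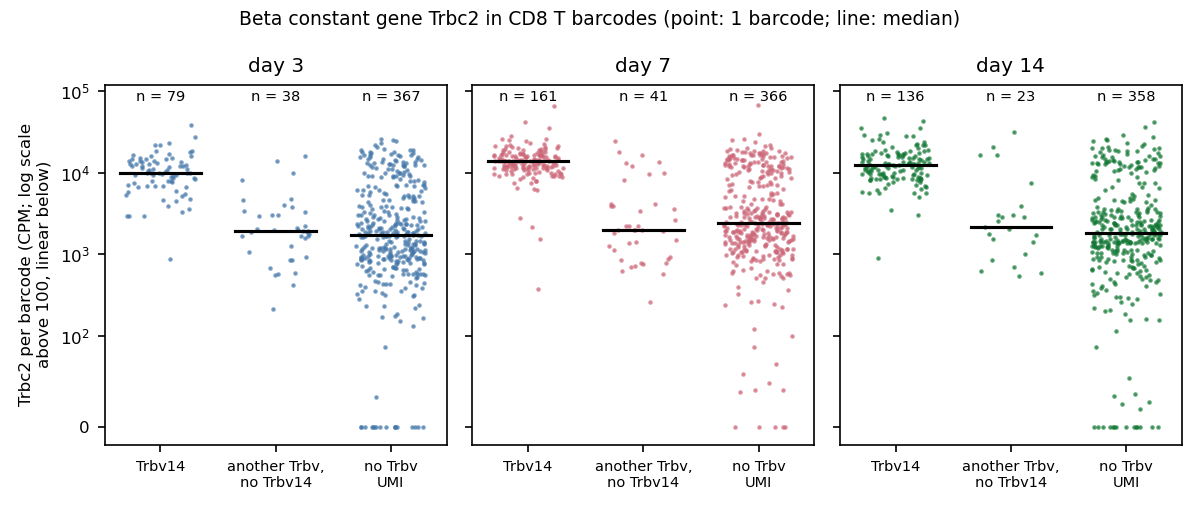
Trbc2 in single CD8 T barcodes (points; vertical axis in CPM, log scale above 100 and linear below) on days 3, 7 and 14, for barcodes with Trbv14, with another beta segment and no Trbv14, and with no Trbv UMI; lines are medians. The Trbv14 medians are 9883, 13822 and 12332 CPM, and the barcodes with no Trbv UMI spread from 0 to the level of the Trbv14 barcodes.

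Of 16 genes of T cell state, 4, 5 and 1 were at least 1.5-fold higher on days 3, 7 and 14 in barcodes with Trbv14 alone than in those with another beta segment, beside 8.73%, 4.28% and 4.71% of all genes, and 5, 6 and 7 were lower, beside 9.95%, 7.48% and 6.66%. Barcodes with Trbv14 alone had less Pdcd1, the inhibitory receptor PD-1, than those with another beta segment on days 3 and 7 (45.2 against 290.2 and 116 against 237 CPM) and 170 against 145 CPM on day 14 (ratio 1.17, 0.888 to 1.57), while Ccr7, a homing receptor of naive and memory cells, was higher with Trbv14 on all 3 days (200.5 against 69.6, 311 against 54.3 and 322 against 166 CPM). Rag1 and Rag2, the enzymes that cut the segments for joining, had 0 UMIs in all Cd3-positive barcodes.

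The alpha segments were far more varied. In CD8 T barcodes 54 segments shared 99, 128 and 108 UMIs on days 3, 7 and 14, and none came near the place of Trbv14. Trav16n had the most UMIs over all days, with 7, 18 and 11 in 5, 10 and 6 barcodes, or 7.07% (2.89 to 14.0), 14.1% (8.55 to 21.3) and 10.2% (5.20 to 17.5) of Trav UMIs. Trav6-7-dv9 followed with 9, 10 and 10 UMIs, and Trav12-2 with 11, 9 and 8. Counted by barcodes over the 3 days these 3 had 21, 16 and 20, and their shares overlapped on every day.

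Further down the order, segments came and went between libraries on few barcodes. Trav9n-4 and Trav4-3 had 11 and 9 UMIs on day 3 and at most 1 later, in 7 and 5 barcodes. Trav13-1 had 0, 8 and 8 UMIs, but 7 of the 8 on day 14 were in 1 barcode. Trav13-2 had 2, 11 and 3, with all 11 of day 7 in 1 barcode. Trav16 had 3, 0 and 13, Trav21-dv12 had 0, 6 and 5 and Trav3-3 had 6, 5 and 0. UMIs of 1 barcode come from 1 droplet and are not separate T cells, so these differences between days rest on a handful of cells.

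**Figure D4:**
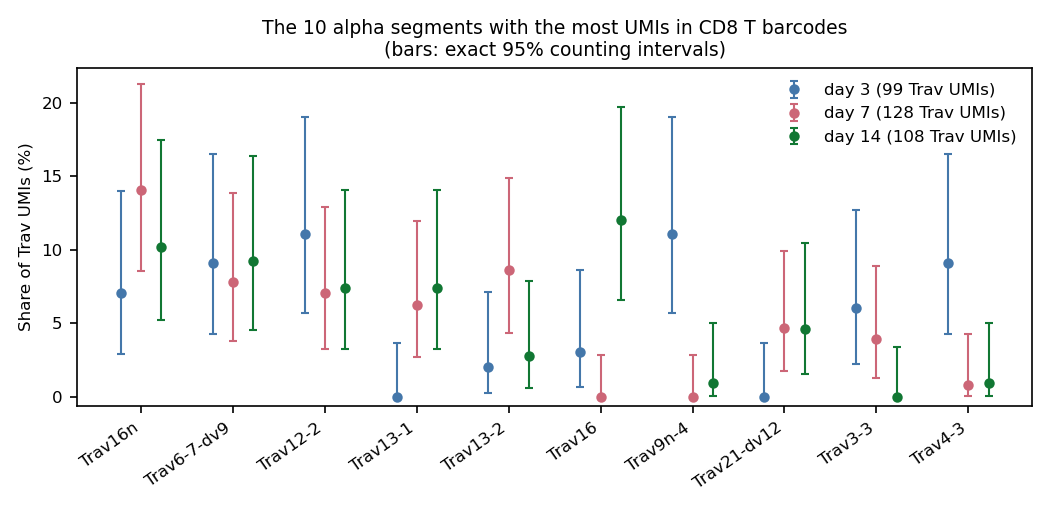
Share of Trav UMIs (vertical axis, %) of the 10 alpha segments with the most UMIs in CD8 T barcodes (horizontal axis) on days 3, 7 and 14; bars are exact 95% intervals. No segment is above 14.1% on any day, and the 3 days overlap for Trav16n, Trav6-7-dv9 and Trav12-2.

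Few barcodes showed both chains. Of 376 CD8 T barcodes with Trbv14, 72 also held an alpha segment (19.1%, 15.3 to 23.5), which were 19 of 79, 27 of 161 and 26 of 136 on days 3, 7 and 14. They spread over 38 alpha segments, 21 of them seen in 1 barcode only. Trav12-2 was in 4, 4 and 3 barcodes or 11 in all (15.3%, 7.88 to 25.7), more than any other single segment, but with d and n copies joined Trav16 was also in 11. Counted apart, Trav16 and Trav16n were in 5 each, Trav6-7-dv9 in 4, and Trav12-3, Trav13-1, Trav14-2, Trav21-dv12 and Trav4-4-dv10 in 3 each. Trav12-1, Trav14d-3-dv8, Trav15-2-dv6-2, Trav3-3, Trav6-4, Trav7-5, Trav7-6 and Trav8-2 were in 2 each. Of barcodes with another beta segment, 17 of 102 held an alpha segment (16.7%), and 2 of these held Trav12-2. Of barcodes with no Trbv UMI, 129 of 1091 did (11.8%), with Trav16n in 15 and Trav12-2 in 7. The 3 groups differed in depth, with medians of 23136.5 UMIs with Trbv14, 19481.5 with another beta segment and 9854 with no Trbv UMI. The part of depth in these shares was not tested. Without barcodes found in more than 1 library, 55 of 288 barcodes with Trbv14 held an alpha segment (19.1%), and Trav12-2 was in 9 of these (16.4%).

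The second exon of Trav12-2 (chr14:53616623-53616914, plus strand, mm10) is shown because this segment, with copies counted apart, was in the most barcodes with Trbv14, with capitals from the last in-frame cysteine codon to the exon end.
Trav12-2: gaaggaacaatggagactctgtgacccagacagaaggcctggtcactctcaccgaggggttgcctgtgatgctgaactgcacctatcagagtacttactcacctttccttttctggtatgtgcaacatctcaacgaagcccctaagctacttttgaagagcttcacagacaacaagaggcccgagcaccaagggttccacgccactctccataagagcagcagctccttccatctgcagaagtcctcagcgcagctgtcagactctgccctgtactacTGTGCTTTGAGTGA
This exon was 95.2% identical to that of each of its copies Trav12d-2 and Trav12n-2. Of the 50-base stretches of its whole coding sequence, 26.8% occurred in another segment. The share with Trbv14 and the share with another beta segment (2 of 17, 11.8%, 1.46 to 36.4) overlapped.

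The Trav7 family, to which the alpha chain of the transferred receptor belongs, was not the leading family with Trbv14. Members of it were in 3, 3 and 2 barcodes with Trbv14 on days 3, 7 and 14, or 8 of 72 (11.1%, 4.92 to 20.7), against 1 of 17 with another beta segment. The Trav12 family was in 16, Trav16 in 11 and Trav6 in 8. Over all Cd3-positive barcodes 8 of the 13 Trav7 members were seen, with 33 UMIs: Trav7-5 had 11, Trav7-3 and Trav7d-3 had 5 each, Trav7-6 had 4, Trav7-4 and Trav7n-4 had 3 each and Trav7-1 and Trav7d-4 had 1 each. The 3 members whose every 50-base stretch occurs in another segment, Trav7-2, Trav7d-5 and Trav7n-5, had no UMI, nor had Trav7d-2 (99.7% shared) and Trav7n-6 (34.7%). The median member shared 80.1% of its 50-base stretches with another segment.

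Alpha segments with no sequence of their own had almost no UMIs. The mouse alpha locus holds repeated blocks, and the letters d and n in a symbol mark the copies. Of 36 alpha segments whose 50-base stretches all occur in another segment, 2 were seen, with 2 UMIs in all. Of the 10 that share no such stretch 8 were seen, with 57 UMIs, and of the 42 that share some but under 50%, 30 were seen with 312 UMIs. Of the 40 that share at least 50% but not all, 26 were seen with 177 UMIs. The shares seen were thus 80%, 71.4%, 65% and 5.56% for none, some under 50%, at least 50% and all stretches shared. In CD8 T barcodes the 55 segments without a letter held 73.1% of Trav UMIs, the 39 d copies 4.48% and the 34 n copies 22.4%. How reads that match more than 1 gene were treated is not given in the sources used here, so the levels of copies, and any order among family members, are uncertain.

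**Figure D5:**
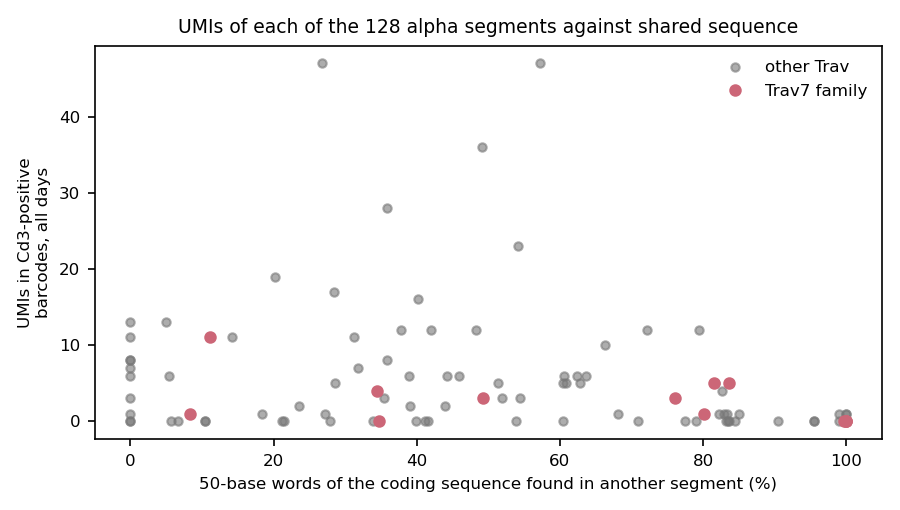
UMIs of each of the 128 alpha segments in Cd3-positive barcodes of all 3 days (vertical axis) against the percent of its 50-base stretches that occur in another segment (horizontal axis), with the Trav7 family in red. The 36 segments at 100% have 2 UMIs in all.

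Trav16 and Trav16n show how close such copies are. Their second exons (chr14:53743406-53743705 and chr14:53351322-53351621, both plus strand, mm10), printed over their last 300 bases, differed at 4 of 300 positions, which are in capitals.
Trav16: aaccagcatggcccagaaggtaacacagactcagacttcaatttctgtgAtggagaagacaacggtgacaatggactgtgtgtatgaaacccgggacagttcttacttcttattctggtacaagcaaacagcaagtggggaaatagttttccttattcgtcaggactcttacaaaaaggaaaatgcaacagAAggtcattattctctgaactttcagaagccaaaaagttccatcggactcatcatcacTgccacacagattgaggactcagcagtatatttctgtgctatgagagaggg
Trav16n: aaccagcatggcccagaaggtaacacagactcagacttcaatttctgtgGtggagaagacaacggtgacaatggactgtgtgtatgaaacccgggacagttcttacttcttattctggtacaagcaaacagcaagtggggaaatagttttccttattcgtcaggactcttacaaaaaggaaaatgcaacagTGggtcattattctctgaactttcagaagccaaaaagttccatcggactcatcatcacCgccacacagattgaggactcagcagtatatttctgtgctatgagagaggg
Trav16n had 36 UMIs in CD8 T barcodes and Trav16 had 16. On day 14 they had 11 (10.2%) and 13 (12%) of 108 Trav UMIs. With d and n copies joined to the gene without a letter, the joined Trav16 had 22.2% on that day.

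The beta segments shared less sequence: 31 of 35 shared no stretch of 50 bases with another segment, Trbv14 and Trbv13-1 among them. Segments annotated as pseudogenes were seen less: 1 of 13 beta and 5 of 20 alpha pseudogenes had a UMI, against 16 of 22 and 61 of 108 functional genes.

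Some alpha segments can also join to the delta chain of gamma-delta T cells, which is marked by dv in the symbol and spliced to Trdc. Those of the 10 such segments that were seen differed in how often Trdc was in the same barcode, on few barcodes each. In other Cd3-positive barcodes, 14 of 19 with a dv segment held Trdc (73.7%, 48.8 to 90.9), against 3 of 58 with another alpha segment (5.17%). In CD8 T barcodes 7 of 43 did (16.3%, 6.81 to 30.7), against 7 of 175 (4%, 1.62 to 8.07). Without barcodes found in more than 1 library these were 14 of 19 against 3 of 57, and 6 of 34 against 5 of 148. Over all Cd3-positive barcodes Trdc was with Trav15-2-dv6-2 in 7 of 7 barcodes, with Trav13-4-dv7 in 9 of 10, with Trav21-dv12 in 4 of 9 and with Trav15-1-dv6-1 in 3 of 7. It was in none of the 19 barcodes with Trav6-7-dv9, the 8 with Trav4-4-dv10, the 6 with Trav14d-3-dv8 or the 4 with Trav16d-dv11. Trav15d-1-dv6d-1 and Trav15d-2-dv6d-2 had no UMI.

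Segments known from invariant T cells were looked at by name. Trav11, the alpha segment of invariant NKT cells, had 0 UMIs in Cd3-positive barcodes, and its copy Trav11d had 1, on day 14. Every 50-base stretch of both occurs in another segment, so these counts do not show whether such cells were present. Trav1, the segment of mucosal-associated invariant T cells, had 7 of 99 Trav UMIs in 6 CD8 T barcodes on day 3 (7.07%, 2.89 to 14.0), as many UMIs as Trav16n on that day. On days 7 and 14 it had 0 of 128 and 0 of 108 Trav UMIs, which allows up to 2.84% and 3.36%. The 6 barcodes with Trav1 held no Trbv UMI, and whether they were such invariant cells was not tested.

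In the CD4 T class the alpha segments with the most UMIs were Trav6n-6 (0, 7 and 2), Trav4-4-dv10 (0, 4 and 2), Trav16n (2, 3 and 0), Trav3-3 (2, 1 and 2) and Trav4-3 (0, 0 and 5), and no segment was in more than 5 barcodes. All 7 UMIs of Trav6n-6 on day 7 were in 1 barcode. In other Cd3-positive barcodes Trav12-2 led with 1, 8 and 9 UMIs, followed by Trav15-1-dv6-1 with 7, 0 and 2. Trav13-1, Trav13-4-dv7 and Trav16n had 8 UMIs each over the 3 days.

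Diversity was summarised as the effective number of segments, that is, how many equally common segments would give the same chance of drawing 1 segment in a pair of UMIs. For beta segments in CD8 T barcodes it was 1.80, 1.45 and 1.31 on days 3, 7 and 14, and 2.45, 1.88 and 1.65 when each barcode counted once per segment. Without barcodes found in more than 1 library it was 2.06, 1.48 and 1.32. At an equal depth of 190 Trbv UMIs, 12.8, 9.92 and 8.16 beta segments were expected. Without Trbv14 the effective number was 7.33, 5.02 and 3.93 from 52, 66 and 44 UMIs. Beta diversity was thus highest on day 3 by each of these measures, also among the segments other than Trbv14, where Trbv13-1 held 9, 25 and 20 of the UMIs.

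For alpha segments the effective number was 18.7, 19.5 and 20.2, and by barcodes 25.5, 24.9 and 30.9. At 90 Trav UMIs, 30.6, 30.5 and 33.1 segments were expected. Alpha segments showed no such order of the days as the beta segments. In the CD4 T class the effective number of beta segments was 1.95 on day 7 and 3.12 on day 14, from 49 and 23 UMIs, and on day 3 all 5 UMIs were of different segments. Leaving out the CD4 T barcodes that also passed the CD8 gate raised these to 3.09 and 18.3. The latter is above the 8 beta segments seen in the whole class on day 14. The value thus rests on the gate and on very few UMIs, and no diversity of the class can be read from it.

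The genes of the receptor complex were compared in CD8 T barcodes from a list of 24, counting those at least 1.5-fold apart with a counting interval that leaves out 1. From day 3 to day 7, 1 of 24 was higher and 0 lower, beside 5.85% and 10.6% of all 11337 genes with at least 20 UMIs. That gene was Trbc2, at 4862 and 8378 CPM (ratio 1.72, 1.70 to 1.74), while Trac was at 596 and 725 CPM (1.22, 1.18 to 1.26). From day 7 to day 14 none was higher and 2 were lower, beside 5.81% and 3.81% of all genes: Cd8b1, a chain of the CD8 co-receptor (685 and 422 CPM), and Thy1, a surface protein of T cells (331 and 219.6 CPM). From day 3 to day 14, Trbc2 was higher (ratio 1.66) and Thy1 lower (1.59-fold), beside 4.27% and 5.8%. With mitochondrial and ribosomal protein genes left out of the total, Thy1 no longer passed in either comparison (1.48-fold lower in both), and Cd3e (1.55) and Cd8b1 (1.51) passed as higher on day 7 than on day 3. Without barcodes found in more than 1 library, Thy1 was 1.45-fold lower on day 14 than on day 7 and did not pass. The median log2 ratio of the list was 0.27, -0.39 and -0.15 in these 3 comparisons, and that of all genes was -0.08, -0.00 and -0.10. Of the 5 segments with at least 20 UMIs, 3 were higher on day 7 than on day 3: Trav16n (ratio 2.56, 1.02 to 7.25), Trbv13-1 and Trbv14. From day 7 to day 14 none of 5 passed, and from day 3 to day 14, 2 of 3 did, Trbv13-1 (2.43, 1.06 to 6.05) and Trbv14 (2.21, 1.80 to 2.70). The result for Trav16n rests on 7 UMIs on day 3 and 18 on day 7. Joined with its near-identical copies Trav16 and Trav16d-dv11 the counts were 12 and 19 UMIs, for which no interval was computed.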

How the data were processed

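Gene expression was measured in 3 single-cell libraries, 1 for each day. The authors deposited 1 sparse matrix of UMI counts per library, which are whole numbers and not normalized. Per the submitters' processing notes the tools and build were Cell Ranger 4.0.0 and mm10; for the gene annotation release, reads that match several genes and doublet removal, the authors' choices were not given in the sources used here. Barcodes under 1500 UMIs were left out, and no doublet caller was run.

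UMIs were summed per segment, class and day with Python 3.11.15, numpy 2.4.6, scipy 1.17.1 and pandas 2.3.3, and CPM are per 1000000 UMIs of the same barcodes. Intervals are exact, at 95%, and no test across libraries was made, since each day has 1 library. To check the code, counts were simulated as independent Poisson draws, which is what the intervals for ratios assume. The intervals held the true value for 95.9%, 95.6% and 95.9% of 11337, 11277 and 11326 genes (day 7 over 3, 14 over 7 and 14 over 3). Clustering of UMIs in barcodes was not simulated, so this does not show how the intervals behave under it. edgeR 4.0.16 in R 4.3.3 gave TMM factors for 1 alternative. All 163 segments matched GENCODE M21 by gene ID; sequences and shared 50-base stretches are from its transcripts.

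Segments were named by rule: Trbv14, the top 8 Trbv and 10 Trav by UMIs in CD8 T barcodes, the top 5 of each chain in the other classes, alpha segments with Trbv14 in at least 2 barcodes, Trav11, Trav11d, Trav1 and the dv segments. Members of the Trav7 family, Trav22 and the level of 5000 CPM were picked after their values were seen. The members, gene lists and rules were chosen with earlier results of these data known. Alternatives varied the UMI minimum, the gates, shared barcodes, the counting unit, the joining of copies and the scaling.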

Additional observations from a re-analysis of the deposited data

Results flagged for a closer look

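The alpha segment Trav22, annotated as a pseudogene, had 6 UMIs on day 7 in NK barcodes, a class used here only as a control. They were in 5 of 347 barcodes (1.44%, 0.469 to 3.33), which together held 0 UMIs of Trac, 7 of Trdc and 6 of Trbc2. On the same day Trav22 had 0 UMIs in Cd3-positive and 0 in myeloid barcodes.

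Barcodes under 1500 UMIs, which no comparison used, held 7, 6 and 7 Trbv UMIs on days 3, 7 and 14, in 7, 6 and 7 of 881, 438 and 647 barcodes. Trbv14 gave 5, 4 and 2 of these UMIs, and 5, 4 and 3 of the barcodes with a Trbv UMI also occurred in another library.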

How the results depend on the processing

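Over 29 results and 19 alternatives, 305 of 327 values stayed within the main value's counting interval or within 1.5 times a main count. The other 22 moved beyond it. A change of direction was looked for only in the Trbv14 odds ratios between days whose main interval left out 1, and 0 of these reversed. The Trbv14 share on day 3 was 66.7% without barcodes with 2 or more UMIs of Csf1r or Cd79a. With each barcode counted once per segment it was 62.7%, 71.9% and 77.3% on days 3, 7 and 14. Alternatives added after the data were seen gave 87.1% and 91.9% on days 7 and 14 without barcodes with Trbv13-1, and 87.3% and 92.3% without barcodes with 2 or more beta segments. The pair share of Trav16n with Trbv14 on day 3 was 0 without the Csf1r or Cd79a barcodes. With copies joined, the leading Trav share on day 14 was 22.2% and the Trav effective number 12.8, and that number by barcodes was 30.9. The CD4 T effective number of beta segments was 3.09 on day 7 and 18.3 on day 14 without barcodes that pass both gates; on day 14 it was 1.91 with at least 2 Cd3 and 2 co-receptor UMIs, 5.67 without the barcode with the most UMIs and 8.08 by barcodes. Receptor complex genes higher on day 7 than on day 3 were 3 under TMM factors and 3 with mitochondrial and ribosomal protein genes left out of the total. The latter total gave 1 lower from day 7 to 14 and 0 lower from day 3 to 14, and leaving out barcodes found in more than 1 library gave 2 lower from day 3 to 14. The cause of these shifts was not tested. No paired analysis was possible because each day is 1 library and the labels give no replicate numbers. Depth limits comparisons of single segments, of which 3 alpha and 3 beta reached 20 UMIs in CD8 T barcodes.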
